A study of Danio rerio with 30 samples.

Results

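A group of 78 genes was lower in the zebrafish telencephalon 3 days after a skull injury and not 3 days after a nostril injury. The telencephalon, the front part of the brain, was taken whole from wild-type fish of the AB/EK strain, 3 to 5 months old by the labels, and its RNA was hybridised to Affymetrix Zebrafish Gene 1.0 ST arrays. The skull injury, a micro-knife pushed vertically through the skull into both hemispheres, was measured at 1, 2, 3 and 7 days post injury (dpi), as was the nostril injury, a thin glass capillary entered through the nostrils, and both were compared with the uninjured (intact) telencephalon. There were 4 samples of skull injury at 3 dpi, 3 of each other injury group and 4 of the intact brain, and neither the labels nor the methods say how many fish went into a sample. No operated fish without a brain wound was part of the series, so anaesthesia and opening of the skull or nostril cannot be told apart from the brain wound.

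The members were chosen by the deposited values themselves. Among 19260 genes with a probe set of a single symbol, 13602 had an intact mean above a linear intensity of 20, and a member had in addition a mean at skull 3 dpi more than 0.7 below intact and a mean at nostril 3 dpi no more than 0.2 below intact, both on the log2 scale. All values are log2 intensities unless called linear. Of the 123 genes more than 0.7 below intact at skull 3 dpi, 78 (63.4%) were members and the others were also lower after nostril injury. The mirrored rule, more than 0.7 above intact at skull 3 dpi and less than 0.2 above it at nostril 3 dpi, held for 37 genes. Since the 3 dpi and intact samples made the choice, the values of these groups are a description, and no test of single members on them is given. In a whole telencephalon, fewer cells of a type and less RNA per cell cannot be told apart.

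**Figure D1:**
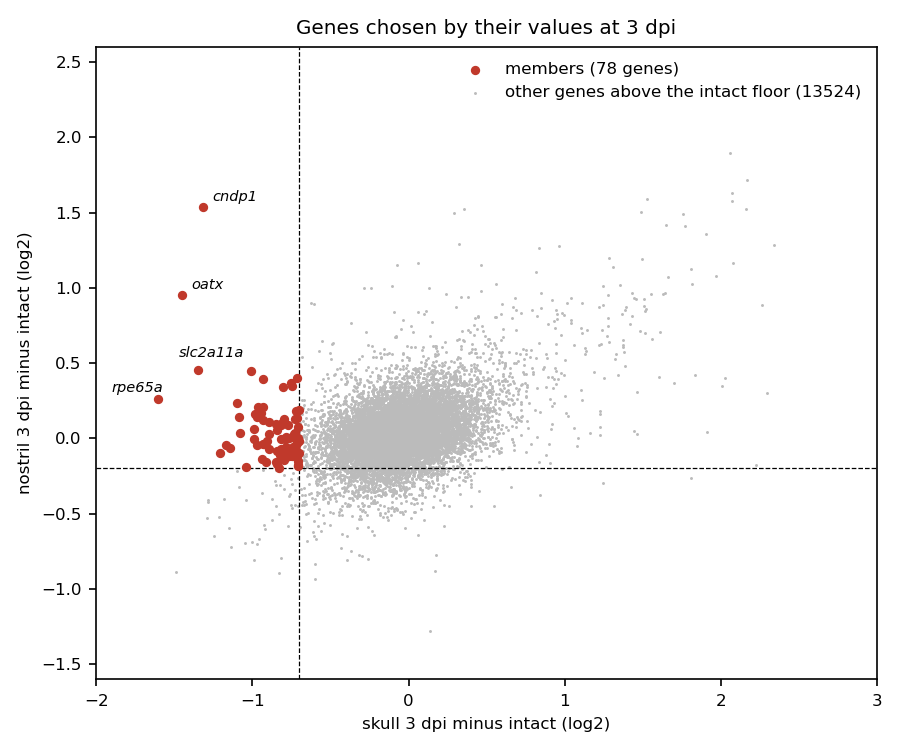
Difference from intact at skull 3 dpi (x axis) and nostril 3 dpi (y axis), both in log2 units, for the 13602 genes above the intact floor. Dashed lines mark the thresholds of -0.7 and -0.2, and the 78 members (red) fill the upper left corner, with cndp1 and oatx highest after nostril injury.

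Brain barriers and glia carry much of the traffic of small molecules in the brain. Ependymoglia, the radial glia of the adult fish telencephalon, line the ventricle, act as neural stem cells, are coupled by connexin gap junctions and take up glutamate and convert it to glutamine. The meninges, the vessels and the choroid plexus hold solute carriers and secreted carrier proteins that move organic anions, sugars, amino acids, retinoids and lipids between blood, cerebrospinal fluid and tissue.

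Of the members, 75 are protein-coding in the current gene table, 2 are long non-coding RNAs and 1 is another RNA. Intact levels were spread from 4.83 to 11.25 with a median of 7.50, against a median of 6.80 over all 13602 genes. The 78 differences from intact ran from -1.6 to -0.70 at skull 3 dpi. All 4 skull 3 dpi samples lay below all 4 intact samples for 46 of the 78 members, where the share among the 13602 genes was 5.58%, and below all 3 nostril 3 dpi samples for 62 members, against 10.9%. Both counts use the values that chose the members.

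The thresholds cut through a continuous range. The member nearest to the skull threshold was cnr1, the cannabinoid receptor, at -0.7003, and the nearest gene outside was mrpl20, a mitochondrial ribosomal protein, at -0.6994. The values of cnr1 were 9.38, 9.74, 8.82 and 9.47 at skull 3 dpi, 10.05, 9.93 and 10.13 at nostril 3 dpi and 9.91, 10.00, 10.18 and 10.12 in intact brains, and those of mrpl20 were 8.66, 8.84, 8.04 and 8.74 at skull 3 dpi, 9.19, 9.1 and 9.1 at nostril 3 dpi and 9.24, 9.25, 9.28 and 9.31 in intact brains. Both genes were lowest in skull 3 dpi replicate 3 and separated from intact in every skull 3 dpi sample. At 1, 2 and 7 dpi cnr1 read 10.17, 10.17 and 10.24, then 10.07, 10.12 and 10.02, then 10.13, 10.21 and 10.26 after skull injury, and 10.43, 10.17 and 9.88, then 10.16, 10.14 and 9.97, then 10.07, 10.12 and 10.11 after nostril injury. Over the same times mrpl20 read 9.09, 9.05 and 9.04, then 9.06, 8.93 and 9.12, then 8.72, 8.98 and 8.81 after skull injury, and 9.05, 9.08 and 9.28, then 8.95, 9.04 and 9.08, then 8.87, 9.05 and 8.81 after nostril injury. At the nostril threshold, klf13, a zinc finger transcription factor, was inside at -0.1954 and zgc:158689 outside at -0.2117. The intact floor fell between rassf9, a Ras association domain protein, at a linear mean of 28.5 and dgat2, an enzyme of triglyceride synthesis, at 19.9.

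The values of klf13 were 9.31, 9.76, 8.78 and 9.58 at skull 3 dpi, 10.17, 9.84 and 9.96 at nostril 3 dpi and 10.05, 10.28, 10.27 and 10.13 in intact brains, and those of zgc:158689 were 7.93, 7.50, 7.54 and 8.09 at skull 3 dpi, 8.66, 8.43 and 8.38 at nostril 3 dpi and 8.29, 8.88, 8.5 and 9.14 in intact brains. Klf13 at 1, 2 and 7 dpi read 9.81, 10.01 and 10.04, then 9.78, 9.85 and 9.83, then 9.45, 10.22 and 10.11 after skull injury, and 10.44, 9.95 and 10.18, then 9.38, 9.76 and 9.86, then 9.68, 9.76 and 10.22 after nostril injury. For zgc:158689 these times gave 7.61, 8.05 and 8.25, then 8.2, 8.06 and 8.04, then 8.16, 7.91 and 7.97 after skull injury, and 8.36, 8.24 and 8.57, then 7.71, 7.67 and 8.48, then 8.15, 7.96 and 8.31 after nostril injury. Skull 3 dpi replicate 3 was the lowest of its group for klf13 and replicate 2 for zgc:158689.

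For rassf9 the values were 4.11, 4.66, 3.64 and 4.05 at skull 3 dpi, 4.73, 4.84 and 4.95 at nostril 3 dpi and 4.38, 4.78, 5.01 and 5.16 in intact brains, and for dgat2 3.88, 3.50, 3.34 and 3.24 at skull 3 dpi, 3.66, 5.07 and 4.26 at nostril 3 dpi and 3.38, 3.34, 4.83 and 5.72 in intact brains. The intact samples of dgat2 were spread over more than 2 log2 units, so its place at the floor rests on replicates 3 and 4. Outside 3 dpi rassf9 read 4.17, 4.85 and 5.08, then 4.16, 4.38 and 4.57, then 3.89, 5.24 and 5.55 after skull injury, and 5.82, 4.81 and 4.63, then 4.01, 4.41 and 4.28, then 4.45, 4.38 and 5.95 after nostril injury at 1, 2 and 7 dpi. Dgat2 read 3.48, 3.64 and 5.47, then 3.94, 4.27 and 4.1, then 3.24, 3.39 and 3.46 after skull injury, and 3.91, 4.95 and 5.49, then 3.55, 4.38 and 4.57, then 3.37, 3.54 and 3.96 after nostril injury at these times.

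Solute carriers were the group furthest from intact. Sorted by function after the values had been seen, 8 members move small molecules across membranes, with a median of -0.99 at skull 3 dpi and 0.31 at nostril 3 dpi. The lowest was oatx, an organic anion transporter of the Slc22 family. Its values were 5.33, 4.47, 4.58 and 5.69 at skull 3 dpi, 7.92, 7.61 and 6.73 at nostril 3 dpi and 6.09, 6.46, 6.38 and 6.94 in intact brains, differences of -1.45 and 0.95 from intact. No skull 3 dpi sample reached any of the other 7, and 2 of the 3 nostril 3 dpi samples lay above every intact sample. At 1, 2 and 7 dpi, oatx read 4.91, 5.42 and 7.54, then 6.55, 6.19 and 6.89, then 5.83, 5.17 and 5.45 after skull injury. After nostril injury the same times gave 6.18, 6.09 and 6.18, then 5.80, 6.39 and 6.46, then 5.49, 6.10 and 6.21. The skull samples at 7 dpi were below all intact samples again, while those at 1 dpi lay on both sides of them.

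Slc2a11a, of the facilitated sugar transporter family, had values of 6.48, 5.41, 4.68 and 5.87 at skull 3 dpi, 8.08, 6.77 and 7.39 at nostril 3 dpi and 6.70, 6.90, 6.74 and 7.50 in intact brains. Skull 3 dpi replicate 3 was the lowest of all 29 samples, and no skull 3 dpi sample overlapped with either other group. Its values at 1, 2 and 7 dpi were 5.70, 6.92 and 7.64, then 6.62, 6.62 and 7.09, then 6.45, 6.42 and 6.55 after skull injury, and 7.14, 7.26 and 7.25, then 5.78, 6.4 and 7.20, then 5.81, 6.74 and 7.12 after nostril injury. At 7 dpi the skull samples sat just below the intact ones and within the wider nostril range.

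Slc7a8b is related to the mammalian neutral amino acid exchanger LAT2. It had values of 5.81, 4.93, 5.06 and 6.10 at skull 3 dpi, 7.10, 6.83 and 6.5 at nostril 3 dpi and 6.14, 6.70, 6.5 and 6.97 in intact brains, and every skull 3 dpi sample was below every sample of both other groups. At 1, 2 and 7 dpi its values were 5.69, 6.36 and 7.66, then 6.58, 6.29 and 6.60, then 5.42, 5.71 and 5.76 after skull injury, and 7.42, 7.11 and 6.67, then 6.45, 6.31 and 6.64, then 5.69, 6.03 and 6.24 after nostril injury. It was low at 7 dpi as well, at -0.94 after skull and -0.59 after nostril injury.

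Slc16a9a, a monocarboxylate transporter that exports carnitine in mammals, also varied widely within skull 3 dpi, with 9.06, 9.27, 7.55 and 8.74 there, 10.47, 9.74 and 10.11 at nostril 3 dpi and 9.32, 9.35, 9.52 and 10.46 in intact brains. Replicate 3 at skull 3 dpi was far below the rest. The other times gave 9.47, 10.02 and 10.54, then 9.74, 9.88 and 9.60, then 8.90, 10.03 and 9.72 after skull injury, and 10.96, 10.77 and 10.76, then 9.96, 9.15 and 9.94, then 9.05, 8.98 and 10.34 after nostril injury. All 3 nostril 1 dpi samples were above every intact sample, a mean difference of 1.17.

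Slc13a3, which carries dicarboxylates such as succinate with sodium, read 5.21, 4.38, 4.84 and 5.23 at skull 3 dpi, 7.01, 6.0 and 5.72 at nostril 3 dpi and 5.38, 5.92, 5.92 and 6.17 in intact brains. The skull samples lay below both other groups, and nostril replicate 1 was the highest of all 29 samples. At 1, 2 and 7 dpi it read 4.77, 5.87 and 6.88, then 5.32, 5.13 and 5.80, then 5.11, 5.04 and 5.56 after skull injury, and 5.52, 5.81 and 6.23, then 5.39, 5.60 and 5.58, then 5.27, 5.54 and 5.71 after nostril injury. Its relative slc13a4, a sodium-sulfate cotransporter, differed from intact by -0.74 at skull 3 dpi and 0.03 at nostril 3 dpi, and it was further from intact at skull 1 dpi (-0.93), skull 2 dpi (-0.83) and nostril 2 dpi (-1.02). Slc16a6a, a ketone body exporter of zebrafish liver, was at -0.97 and 0.14, and slc38a3a, a glutamine transporter, at -0.71 and -0.18.

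**Figure D2:**
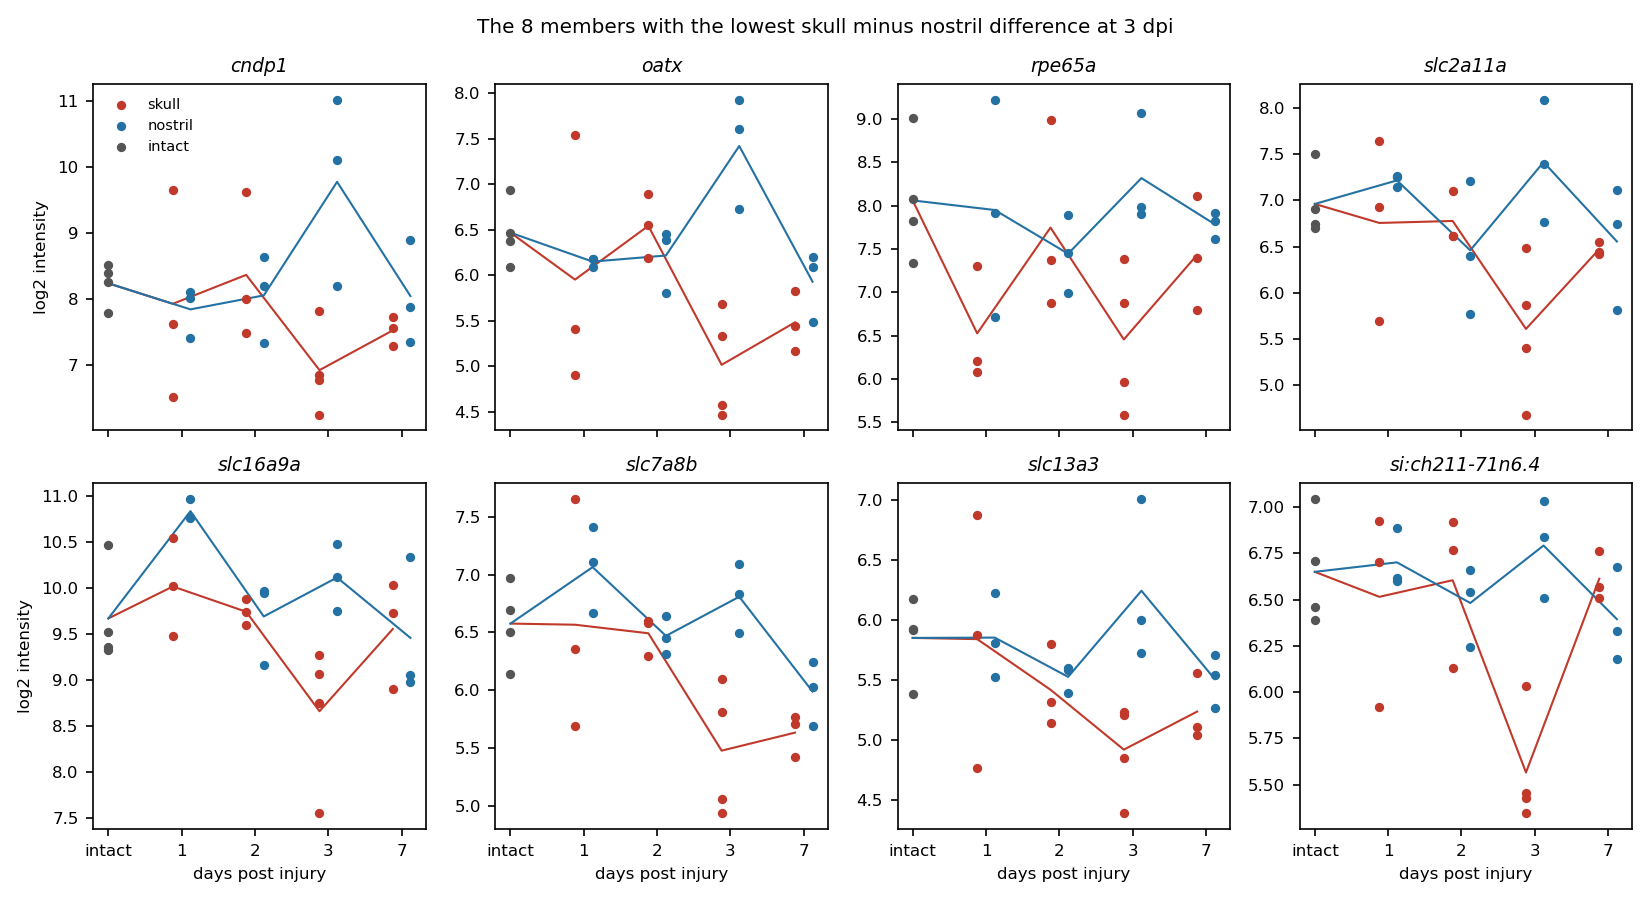
Log2 intensity of the 8 members with the lowest skull minus nostril difference at 3 dpi. Points are samples of skull injury (red), nostril injury (blue) and intact brains (grey), lines join group means, and the skull 3 dpi samples lie below the nostril 3 dpi samples in all 8 panels.

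A second group of 12 members handles retinoids, lipids and steroids, with a median of -0.83 at skull 3 dpi and 0.02 at nostril 3 dpi. Rpe65a, related to the retinoid isomerase of the visual cycle in the retinal pigment epithelium, was the lowest of all members. It had 6.88, 5.59, 5.97 and 7.39 at skull 3 dpi, 9.07, 7.98 and 7.90 at nostril 3 dpi and 7.34, 8.07, 7.82 and 9.01 in intact brains. All skull 3 dpi samples were below all nostril 3 dpi samples, but replicate 4 was above the lowest intact sample. Rpe65a at 1, 2 and 7 dpi read 6.20, 6.08 and 7.30, then 7.38, 6.87 and 8.99, then 8.12, 7.39 and 6.79 after skull injury, and 7.92, 6.71 and 9.22, then 6.99, 7.46 and 7.89, then 7.92, 7.62 and 7.82 after nostril injury. The skull 1 dpi mean, at -1.53 from intact, was nearly as low as that of skull 3 dpi, and the skull 1 dpi samples were all below the intact minimum. None of the 14 measured photoreceptor and pineal genes passed the adjusted threshold in limma between skull 3 dpi and intact, and 1 had an unadjusted p under 0.05. Their summed linear level was 270 to 308 at skull 3 dpi and 281 to 316 in intact brains. The highest sums were 4619 at skull 2 dpi, 6260 at nostril 1 dpi and 2636 at nostril 2 dpi, beside medians of 304, 283 and 285 in these groups. The cause of these high sums was not tested.

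Rbp4, the retinol carrier of plasma, was at -0.85 and 0.09 from intact at 3 dpi, but its lowest mean was at nostril 7 dpi (-1.09), beside -0.95 at skull 7 dpi. Ptgdsb.1, a lipocalin-type prostaglandin D synthase known from the meninges and choroid plexus of mammals, was at -1.21 and -0.10. Its means were 9.24 ± 0.63 at skull 3 dpi (SD, n = 4), 10.35 ± 0.15 at nostril 3 dpi (n = 3) and 10.45 ± 0.48 in intact brains (n = 4), and it was low again at 7 dpi, by -0.90 after skull and -0.83 after nostril injury. Ptgdsb.1 was thus one of 7 members past -0.7 after both injuries at 7 dpi, with tmem98, rbp4, proca1, fabp7b, lipg and elovl2.

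Fatty acid genes in the group were fads6, of the desaturase family (-0.94 at skull 3 dpi and 0.17 at nostril 3 dpi), elovl2, which elongates polyunsaturated fatty acids (-0.71 and 0.01), fabp7b, a fatty acid-binding protein of radial glia (-0.80 and 0.34), and lipg, the endothelial lipase (-0.80 and -0.15). Elovl2, fabp7b and lipg were lower at 7 dpi than at 3 dpi in the mean of the skull injury, at -0.83, -1.08 and -1.37 from intact. Apof, an apolipoprotein, was at -0.75 and 0.36, and enpp6, a choline phosphodiesterase found in young oligodendrocytes of mammals, at -0.73 and 0.00.

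The steroid genes were paqr6, a membrane progestin receptor (-1.04 at skull 3 dpi and -0.19 at nostril 3 dpi), hsd11b2, which oxidises cortisol to cortisone (-0.89 and 0.03), and hsd20b2, which takes cortisone further to an inactive form in zebrafish (-0.71 and -0.18). All 3 separated skull 3 dpi from both other groups in every sample, by the values that chose them. For each of the 3, nostril 3 dpi also held a sample below every intact sample. None of the 3 met the rule without nostril 3 dpi replicate 1. At 2 dpi after nostril injury hsd11b2 and hsd20b2 were at -0.81 and -0.65 as well.

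Among 9 other metabolic enzymes and metal-binding proteins the difference between the injuries was widest for cndp1, a dipeptidase that cleaves carnosine. It read 6.25, 6.77, 6.85 and 7.82 at skull 3 dpi, 11.01, 10.11 and 8.2 at nostril 3 dpi and 7.79, 8.39, 8.26 and 8.51 in intact brains, differences from intact of -1.32 and 1.54. The nostril mean rested on replicates 1 and 2, since replicate 3 lay inside the intact range, and skull replicate 4 was also just inside it. At 1, 2 and 7 dpi cndp1 read 6.51, 7.61 and 9.65, then 7.99, 7.49 and 9.61, then 7.73, 7.55 and 7.29 after skull injury, and 7.41, 8.10 and 8.02, then 7.33, 8.63 and 8.2, then 7.35, 8.90 and 7.88 after nostril injury. Single skull samples at 1 and 2 dpi stood more than 1 log2 unit above intact, so cndp1 varied widely between samples at more than 1 time.

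Glulb, a glutamine synthetase of astroglia, was the most even member across skull 3 dpi, with 8.62, 8.65, 8.73 and 8.55 there, 9.51, 9.04 and 9.38 at nostril 3 dpi and 9.06, 9.39, 9.33 and 9.64 in intact brains. The 4 skull 3 dpi samples lay close together and below every nostril 3 dpi and intact sample. Glulb at 1, 2 and 7 dpi was 8.59, 9.14 and 9.23, then 8.94, 8.93 and 8.66, then 8.79, 9.48 and 9.17 after skull injury, and 9.67, 9.49 and 9.29, then 8.88, 8.64 and 9.24, then 8.62, 8.84 and 9.22 after nostril injury. Gpt, an alanine transaminase, was at -0.78 at skull 3 dpi and -0.08 at nostril 3 dpi, ca5a, a mitochondrial carbonic anhydrase, at -0.81 and -0.01, rce1a, a CAAX protease, at -0.93 and 0.20, meltf, an iron-binding membrane protein, at -0.72 and 0.40, and pde9aa, a cyclic GMP phosphodiesterase, at -0.72 and -0.12.

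Gja1b, a connexin 43 that couples astroglia, led 7 members of junctions, adhesion and matrix. Its means were 9.71 ± 0.69 at skull 3 dpi (SD, n = 4), 10.84 ± 0.08 at nostril 3 dpi (n = 3) and 10.88 ± 0.35 in intact brains (n = 4). Its 4 skull values, 9.40, 10.59, 8.98 and 9.88, had replicate 2 within the intact values of 10.47, 10.74, 11.05 and 11.27 and replicate 3 far below them. The other members were clec11a, a secreted lectin (-0.93 at skull 3 dpi and -0.04 at nostril 3 dpi), emilin1b, an elastic fibre protein (-0.91 and -0.02), pcdh2g16, a clustered protocadherin (-0.82 and -0.10), colec12, a scavenger receptor (-0.81 and 0.09), timp4.3, a metalloproteinase inhibitor (-0.80 and 0.13), and gpr37l1b, a receptor of astroglia in mammals (-0.78 and -0.06). A second probe set of pcdh2g16 was at -0.28 and -0.34, so the probe sets of this gene disagreed.

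Secreted signals and their modulators made up 8 members. Igf2b, an insulin-like growth factor, was at -0.99 at skull 3 dpi and 0.06 at nostril 3 dpi, and igfbp2a, an IGF-binding protein, at -0.93 and -0.04. Both had all 4 skull 3 dpi samples below every other sample of the 3 dpi and intact groups. Twsg1a, which modulates Bmp, was at -0.96 and 0.21, shisa3, an inhibitor of Wnt and Fgf receptors, at -0.84 and -0.17, lfng, which glycosylates Notch, at -0.77 and -0.12, mstnb, a myostatin, at -0.73 and 0.13, lgr4, a receptor for R-spondins that enhances Wnt signals, at -0.71 and 0.14, and the chemokine ccl25b at -0.84 and 0.06.

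Of 3 transcription factors, klf13 was at -0.83 at skull 3 dpi and -0.20 at nostril 3 dpi, and foxd1, a forkhead factor of meningeal and other mesenchyme, at -0.72 and 0.18. Otpb, a homeodomain factor of hypothalamic and preoptic neurons, had 5.51, 5.24, 5.28 and 5.38 at skull 3 dpi, 6.02, 5.53 and 6.66 at nostril 3 dpi and 5.91, 5.82, 5.83 and 7.13 in intact brains. The skull values of otpb were among the 3 narrowest of all members, but otpb did not meet the rule without intact replicate 4, which stood more than 1 log2 unit above the other intact samples. It also failed without intact replicate 2, intact replicate 3 or nostril 3 dpi replicate 3, and met the rule in 7 of 11 such settings. Otpb at 1, 2 and 7 dpi was 5.57, 6.03 and 6.53, then 5.42, 5.94 and 5.89, then 6.20, 5.54 and 6.03 after skull injury, and 6.13, 6.02 and 5.64, then 5.47, 6.21 and 5.2, then 6.56, 4.84 and 5.81 after nostril injury.

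Neurotransmitter and intracellular signalling gave 5 members, among them cnr1, the serotonin receptor htr1e (-0.75 at skull 3 dpi and -0.12 at nostril 3 dpi), the kinase pim3 (-0.89 and -0.07) and gpsm1a, a modulator of inhibitory G proteins (-0.75 and 0.35). The median of this group was above intact at skull 1 and 7 dpi, with 0.14, -0.07 and 0.15 at 1, 2 and 7 dpi.

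The cytoskeleton, small GTPases and vesicles gave 9 members. Rabgap1l2, a Rab GTPase-activating protein, was at -1.14 at skull 3 dpi and -0.07 at nostril 3 dpi, abr at -0.94 and -0.14, ppp1r9alb, a neurabin, at -0.91 and -0.16, farp2, a Rac exchange factor, at -0.90 and 0.11, the beta-tubulin tubb2b at -0.84 and -0.08, the SNARE protein vamp8 at -0.77 and 0.09, fez2a, related to mammalian FEZ proteins of axon outgrowth, at -0.71 and -0.03, and rassf9 at -0.72 and 0.01. A second probe set of ppp1r9alb stood at -0.24 and -0.02, nearer to intact than the one used. Tubb2b may share signal with other tubulin genes on the array.

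Of 6 membrane and other proteins of less defined role, tmem72 was at -1.08 at skull 3 dpi and 0.03 at nostril 3 dpi, lix1 at -0.97 and -0.04, tmem98 at -0.93 and 0.12, and tmbim1a at -0.85 and -0.15. Proca1 was narrow at skull 3 dpi, with 7.76, 7.7, 7.74 and 7.94 against 9.07, 8.39 and 8.13 at nostril 3 dpi and 8.32, 8.28, 8.59 and 9.22 in intact brains. Its other values were 7.61, 7.64 and 8.67, then 7.60, 8.04 and 8.64, then 7.14, 7.06 and 7.47 at 1, 2 and 7 dpi after skull injury, and 8.16, 7.98 and 8.06, then 7.31, 8.37 and 8.70, then 7.01, 7.54 and 7.65 after nostril injury. Proca1 was lowest at 7 dpi, by -1.38 after skull and -1.20 after nostril injury, so 3 dpi was not its low point after either.

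Mmd, known from differentiating monocytes and macrophages, differed widely between the skull 3 dpi replicates. It read 8.24, 9.45, 7.37 and 9.31 at skull 3 dpi, 9.47, 9.33 and 9.70 at nostril 3 dpi and 9.33, 9.26, 9.58 and 9.42 in intact brains. Skull replicates 1 and 3 were low and replicates 2 and 4 were inside the intact range. Elsewhere mmd was even, at 9.59, 9.61 and 9.65, then 9.60, 9.67 and 9.54, then 9.68, 9.81 and 9.70 at 1, 2 and 7 dpi after skull injury, and 9.59, 9.56 and 9.39, then 9.48, 9.55 and 9.55, then 9.67, 9.85 and 9.63 after nostril injury.

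There were 11 transcripts with only clone or locus names in the annotation. Si:ch211-71n6.4 had 6.03, 5.43, 5.34 and 5.46 at skull 3 dpi, 7.03, 6.51 and 6.84 at nostril 3 dpi and 6.39, 6.46, 6.71 and 7.04 in intact brains, with no overlap. At 1, 2 and 7 dpi it was 5.92, 6.70 and 6.92, then 6.92, 6.77 and 6.13, then 6.57, 6.76 and 6.51 after skull injury, and 6.62, 6.89 and 6.60, then 6.66, 6.24 and 6.54, then 6.33, 6.18 and 6.67 after nostril injury. The means of these 6 groups lay between -0.26 and 0.05 from intact.

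Si:ch211-114n24.6 and LOC793521 had, with mmd, the widest spread at skull 3 dpi. Si:ch211-114n24.6 read 5.52, 6.56, 3.73 and 5.33 at skull 3 dpi, 6.17, 5.63 and 6.41 at nostril 3 dpi and 5.94, 5.77, 6.24 and 6.36 in intact brains, and LOC793521 read 6.84, 6.09, 6.86 and 4.78 at skull 3 dpi, 6.65, 6.83 and 6.92 at nostril 3 dpi and 6.81, 6.85, 7.00 and 7.05 in intact brains. Neither met the rule without its lowest sample, skull 3 dpi replicate 3 for si:ch211-114n24.6 and replicate 4 for LOC793521. The other times gave, for si:ch211-114n24.6, 6.21, 7.47 and 7.19, then 6.24, 6.97 and 7.03, then 5.19, 5.71 and 5.69 after skull injury, and 6.75, 7.30 and 7.28, then 6.84, 5.92 and 6.83, then 6.17, 5.56 and 5.2 after nostril injury. LOC793521 read 6.82, 6.83 and 7.03, then 6.80, 6.91 and 7.04, then 7.10, 6.64 and 6.60 after skull injury, and 7.01, 7.37 and 6.44, then 6.89, 6.69 and 6.76, then 7.07, 7.10 and 6.92 after nostril injury at 1, 2 and 7 dpi. Si:ch211-114n24.6 was above intact at 1 dpi in the mean of both injuries, by 0.88 after skull and 1.04 after nostril injury.

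The long non-coding RNAs were si:dkey-85k7.7 (-0.98 at skull 3 dpi and 0.16 at nostril 3 dpi) and linc-epb41l4a (-0.74 and -0.06). The others were si:dkey-27d5.5 (-0.99 and -0.01), si:dkey-27d5.14 (-0.77 and 0.00), si:ch211-214b16.3 (-0.81 and -0.08), si:dkey-104n9.1 (-0.78 and 0.01), si:ch211-251b21.1 (-0.73 and 0.04) and si:dkey-178e17.3 (-0.72 and -0.08). The 4 members not described singly lay between -0.71 and -0.70 at skull 3 dpi. By gene order in the current annotation, gja1b and fabp7b are neighbours with 3 genes between them, si:dkey-27d5.5 and si:dkey-27d5.14 have 5 genes between them, and lix1 and gpsm1a have 16.

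**Figure D3:**
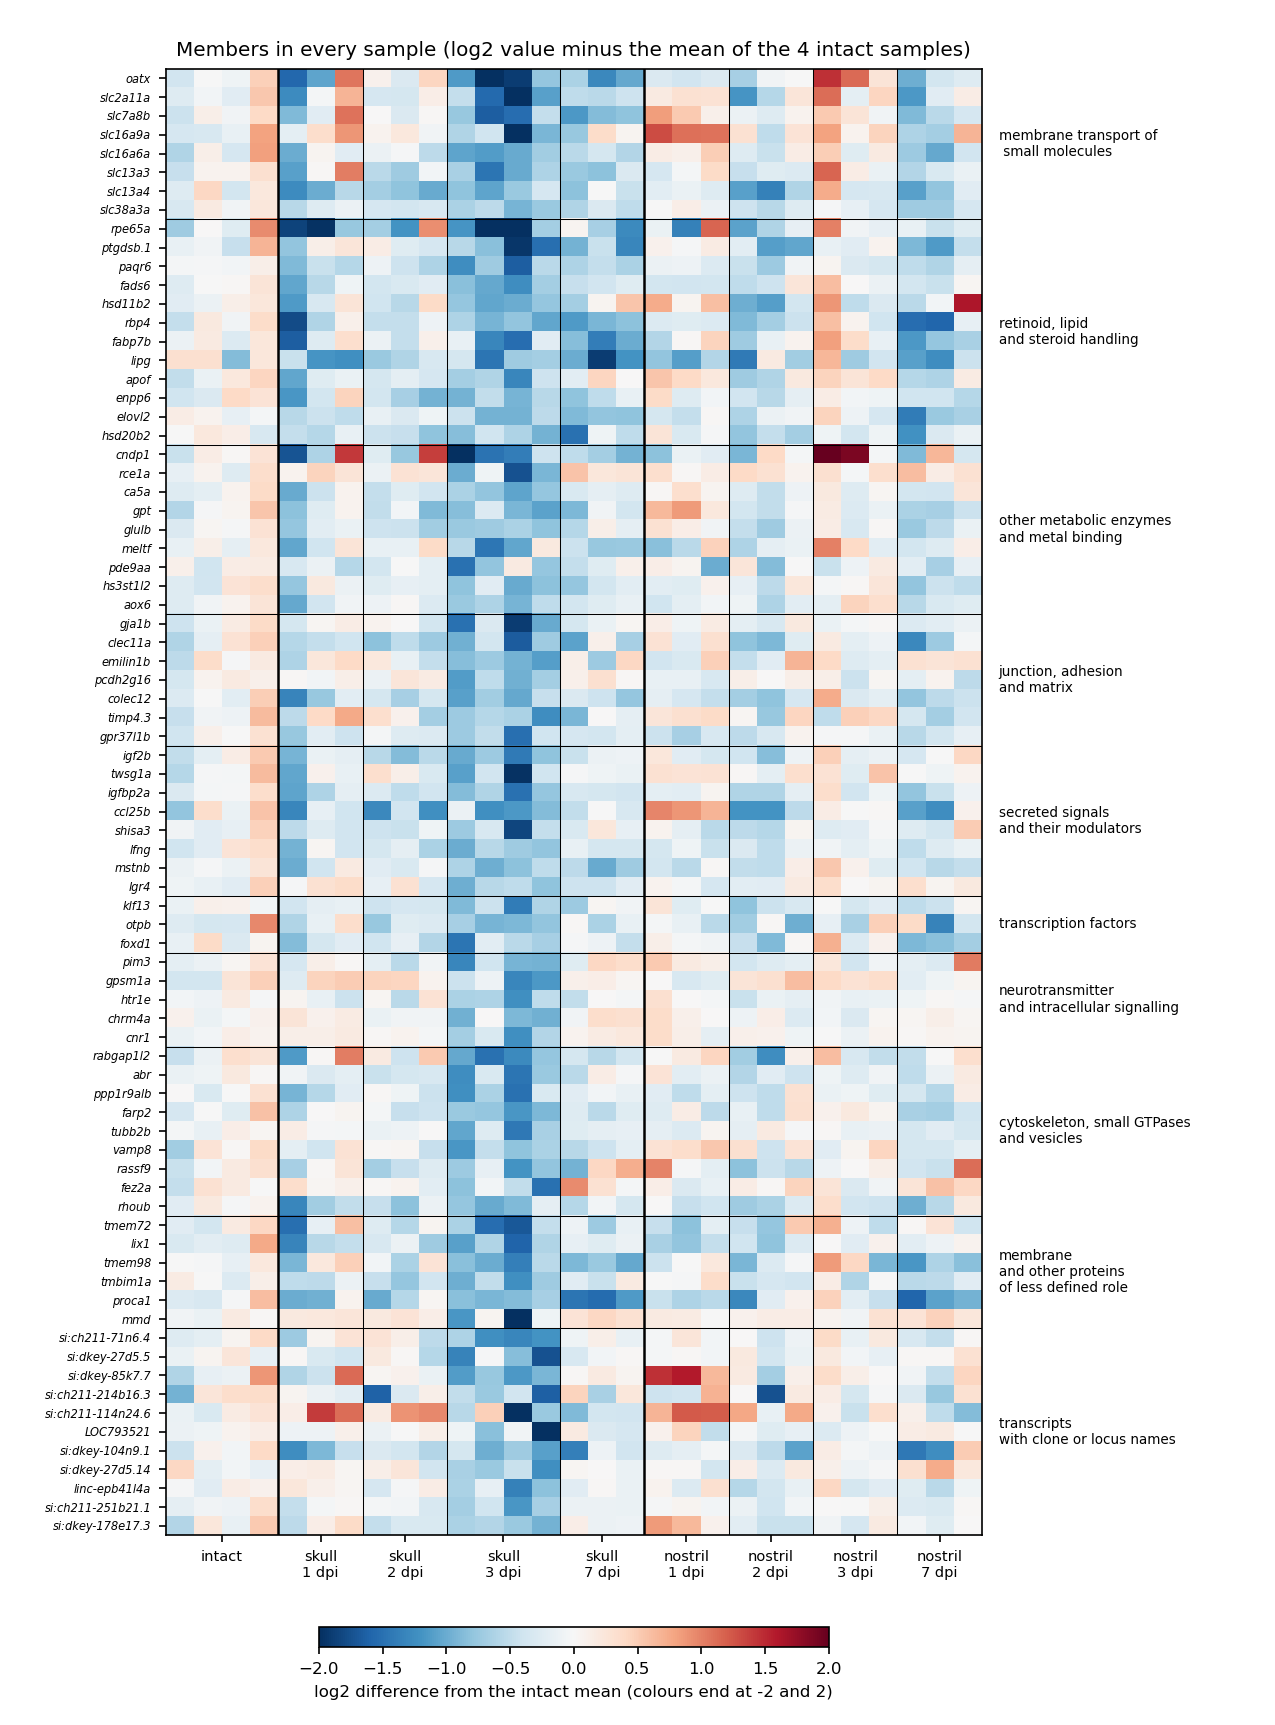
Log2 value of each of the 78 members (lines, by function group) in each of the 29 samples (columns), minus the mean of the 4 intact samples, with colours ending at -2 and 2. The 4 skull 3 dpi columns are blue for nearly all members. Paler blue appears at skull 1 dpi replicate 1, at skull 2 dpi, at both 7 dpi groups and at nostril 2 dpi.

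Outside 3 dpi the members were not uniformly at intact levels. Relative to the same intact samples, which all these differences share, their median was -0.31 at skull 1 dpi, -0.19 at skull 2 dpi, -0.82 at skull 3 dpi and -0.26 at skull 7 dpi, against 0.05, 0.04, -0.05 and 0.05 over all 13602 genes. After nostril injury it was -0.02, -0.29, 0.00 and -0.30 at 1, 2, 3 and 7 dpi, against 0.03, 0.06, 0.04 and 0.04. Below intact in the mean were 62, 66 and 66 of 78 members at skull 1, 2 and 7 dpi, against 39.5%, 40.4% and 40.6% of all 13602 genes, and 43, 67 and 64 at nostril 1, 2 and 7 dpi, against 43.9%, 37.5% and 42.5%. The rule favoured genes that were high in these intact samples, which lowers every difference of the members from them. These medians and counts are therefore a description, and the values over all genes are not a like comparison.

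Few of these means passed the skull threshold of -0.7. It was passed by 8 members at skull 1 dpi, 2 at skull 2 dpi, 11 at skull 7 dpi, 1 at nostril 1 dpi, 4 at nostril 2 dpi and 11 at nostril 7 dpi. Of all 13602 genes, 0.434%, 0.176% and 0.559% passed it at skull 1, 2 and 7 dpi and 0.25%, 0.323% and 0.64% at nostril 1, 2 and 7 dpi. The choice of members by the intact samples bears on these counts as well. In all, 57 members were past it at skull 3 dpi and in no other group, while 21 were past it in at least 1 other group. Neither of these counts was taken over all 13602 genes. The skull 3 dpi mean was the lowest of the 9 group means for 67 members. The rule favoured this by asking for a low skull 3 dpi mean, and it was not counted over all 13602 genes. For the other 11 the lowest mean was at another time, among them rbp4, foxd1 and elovl2 at nostril 7 dpi, fabp7b, lipg, proca1 and mstnb at skull 7 dpi, and ccl25b and slc13a4 at nostril 2 dpi. "Only after skull injury at 3 dpi" therefore describes 57 of the members by this threshold alone. The rule set a stricter limit of -0.2 for nostril injury at 3 dpi. The member medians of -0.31 at skull 1 dpi, -0.29 at nostril 2 dpi and -0.30 at nostril 7 dpi were past that limit. Fewer than 57 would be low only at skull 3 dpi by it.

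Differences between groups other than 3 dpi and intact did not use the values that chose the members. They were tested with limma, adjusted over 40670 probe sets. The spread in these tests was estimated over all 9 groups, so it did use the samples that chose the members. With only the compared groups fitted, 3 members were called in nostril 7 minus 1 dpi and 0 in each other comparison. The probe sets set beside the members include ones without a symbol and ones above the floor in any 1 group. They are therefore not a like set to the members, which are named genes above the floor in intact brains. At 1 dpi, 61 of 78 members were lower after skull than after nostril injury, against 45.1% of all probe sets. Their median difference was -0.22 where the median of all probe sets was 0.02. None passed the adjusted threshold of 0.05 in limma, beside 0.0344% of all probe sets. At an unadjusted p under 0.05 there were 13 members, all lower after skull injury, where 2.81% of all probe sets were lower at that level. This count was 5 without skull 1 dpi replicate 1, 25 without skull 1 dpi replicate 3 and 8 without nostril 1 dpi replicate 1. The samples of skull 1 dpi differed, with member medians relative to intact of -0.75, -0.17 and 0.05, and the median difference was -0.03 without replicate 1 and -0.41 without replicate 3.

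Ccl25b, a chemokine known for drawing lymphocytes to the thymus and gut in mammals, was furthest apart at 1 dpi. It had 7.90, 9.03 and 8.80 at skull 1 dpi against 10.17, 10.08 and 9.88 at nostril 1 dpi, a difference of -1.46 (SE 0.37, limma adjusted p = 0.296). At 2 and 7 dpi it read 7.91, 8.82 and 7.96, then 8.71, 9.19 and 8.88 after skull injury, and 8.0, 8.01 and 8.68, then 8.11, 7.96 and 9.28 after nostril injury. At 3 dpi it had 9.09, 7.96, 8.04 and 8.33 after skull and 9.35, 9.19 and 9.22 after nostril injury, and the intact samples had 8.41, 9.55, 9.06 and 9.77. The nostril 1 dpi samples were the highest of all, and the low group means were at skull 1, 2 and 3 dpi and nostril 2 and 7 dpi.

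At 2 and 7 dpi the injuries lay close to each other over the members. At 2 dpi the median of skull minus nostril was 0.04 and at 7 dpi it was 0.01, with no member passing the adjusted threshold in limma at either time and 0% of all probe sets called. The unadjusted p was under 0.05 for 0 members at 2 dpi and 4 at 7 dpi. These compare with 2.33% and 2.85% of all probe sets, and the 4 became 2 to 6 when single samples were left out. Of the 4, lgr4 was lower after skull injury than after nostril injury, by -0.54 (SE 0.19, limma adjusted p = 1), as was si:dkey-27d5.14 by -0.45 (SE 0.20, limma adjusted p = 1), while foxd1 was higher by 0.60 (SE 0.27, limma adjusted p = 1).

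Within the skull injury, late and early samples were compared as 7 minus 1 dpi. The median over the members was 0.01, no member passed the adjusted threshold in limma beside 0.507% of all probe sets, and 7 had an unadjusted p under 0.05, where 9.81% of all probe sets did. That count was 4 without skull 7 dpi replicate 3 and 13 without skull 1 dpi replicate 1. The lowest was si:ch211-114n24.6 at -1.43 (SE 0.46, limma adjusted p = 0.215).

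The nostril injury was compared in the same way. In 7 minus 1 dpi, 60 of 78 members were below 0 with a median of -0.26, against 48.7% and a median of 0.01 over all probe sets. Here 4 members passed the adjusted threshold in limma, all lower at 7 dpi, beside 5.3% of all probe sets, so their share was near that of the whole array. At an unadjusted p under 0.05 there were 21 members, 20 of them lower at 7 dpi, where 19.1% of all probe sets were under that level and 9.51% were lower. Ccl25b fell by 1.59 (SE 0.37, adjusted p = 0.0127), gpt fell by 1.14 (SE 0.28, adjusted p = 0.0178), slc38a3a fell by 0.59 (SE 0.15, adjusted p = 0.0227) and si:dkey-85k7.7 fell by 1.27 (SE 0.37, adjusted p = 0.0454). No member passed without nostril 7 dpi replicate 1 or without replicate 2, 1 passed without nostril 1 dpi replicate 1 or without replicate 2, and 8 passed without nostril 7 dpi replicate 3. The nostril 1 dpi means of ccl25b, gpt and si:dkey-85k7.7 were above intact, at 0.84, 0.57 and 1.23.

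The single samples show this. Gpt had 7.00, 6.98 and 7.21 at nostril 7 dpi and 8.29, 8.48 and 7.85 at nostril 1 dpi, without overlap, and 6.74, 7.56 and 7.26 at skull 7 dpi and 6.81, 7.39 and 7.71 at skull 1 dpi, which overlapped. At 2 and 3 dpi gpt read 7.14, 7.58 and 6.75, then 6.79, 7.36, 6.73 and 6.57 after skull injury, and 7.27, 7.14 and 7.61, then 7.80, 7.36 and 7.50 after nostril injury, with 7.05, 7.61, 7.69 and 8.2 in intact brains. Intact replicate 1 was as low as the nostril 7 dpi samples.

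Slc38a3a had 8.49, 8.5 and 8.86 at nostril 7 dpi and 9.20, 9.33 and 9.08 at nostril 1 dpi, and 8.61, 8.92 and 8.70 at skull 7 dpi and 8.66, 8.95 and 9.08 at skull 1 dpi. At 2 and 3 dpi it read 8.88, 8.84 and 8.88, then 8.57, 8.68, 8.28 and 8.46 after skull injury, and 8.78, 8.64 and 8.95, then 9.18, 9.04 and 8.86 after nostril injury, with 8.88, 9.38, 9.13 and 9.43 in intact brains. Its nostril 7 dpi samples were all below the intact range.

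Si:dkey-85k7.7 had 7.22, 6.82 and 7.72 at nostril 7 dpi and 8.76, 8.88 and 7.94 at nostril 1 dpi, and 7.32, 7.46 and 7.34 at skull 7 dpi and 6.69, 6.87 and 8.43 at skull 1 dpi. At 2 and 3 dpi it read 7.33, 7.38 and 7.15, then 6.18, 6.53, 6.14 and 6.38 after skull injury, and 7.48, 6.61 and 7.39, then 7.66, 7.41 and 7.29 after nostril injury, with 6.68, 7.13, 7.18 and 8.18 in intact brains. Nostril 1 dpi replicates 1 and 2 were above every other sample.

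The difference between the injuries in this change, skull 7 minus 1 dpi less nostril 7 minus 1 dpi, was tested as an interaction that was added after the data had been seen. No member passed in limma beside 0.00492% of all probe sets, and 11 had an unadjusted p under 0.05, as did 1906 of 40670 probe sets. For ccl25b the difference of the changes was 1.94 (SE 0.53, limma adjusted p = 0.993).

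**Figure D4:**
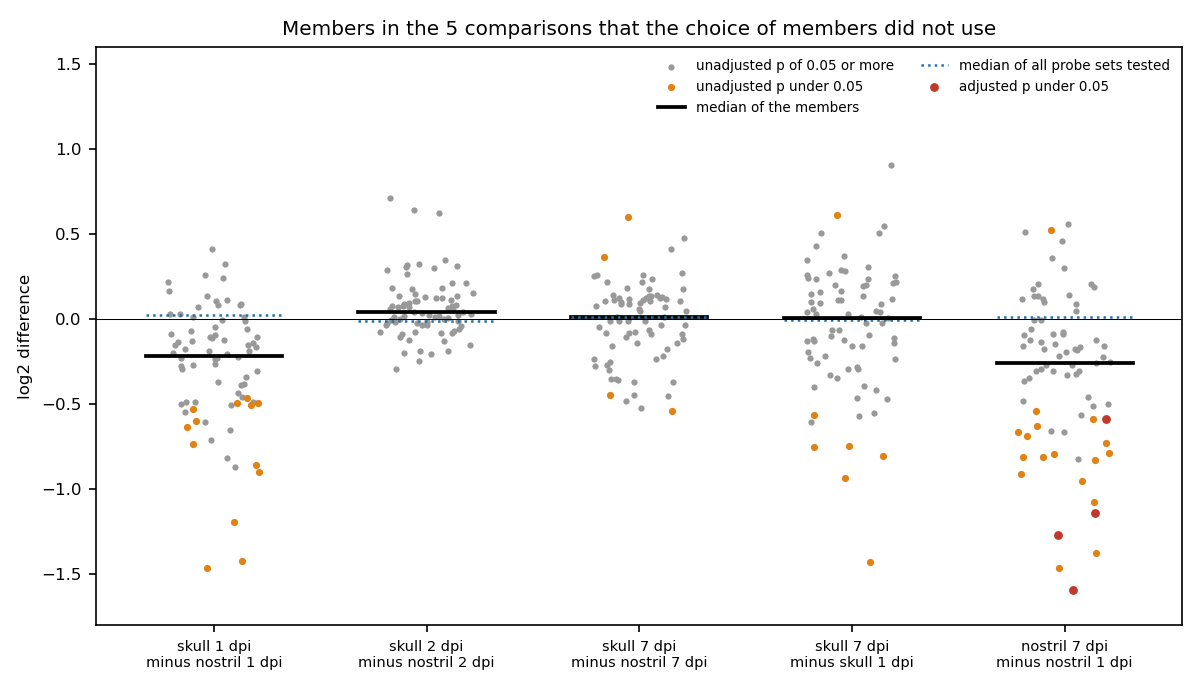
Log2 differences of the 78 members in the 5 comparisons without 3 dpi or intact samples, with each point a member and bars for the median of the members (black) and of all probe sets (blue, dotted). Members lie mostly below 0 in skull minus nostril at 1 dpi and in nostril 7 minus 1 dpi, where the 4 red points passed the adjusted threshold.

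The single skull 3 dpi replicates carried the low values unequally. The member medians relative to intact were -0.81, -0.63, -1.15 and -0.75 in replicates 1 to 4, and 50, 37, 68 and 43 members were past -0.7 in each, against 4.49%, 1.77%, 6.35% and 2.13% of all 13602 genes. Replicate 3 held the lowest value of the 4 for 38 members (48.7%) and for 32.3% of all genes, and replicate 2 the highest for 37 members (47.4%) and for 38.5% of all genes, so part of this order was found over the whole array. In replicate 2, 18 members were at or above the lowest intact sample, against 6, 4 and 13 in replicates 1, 3 and 4. This overlap was not counted over all 13602 genes, so it is not read as a trait of the members. Across the 78 members, the pairwise correlation of replicates was between -0.31 and 0.09. This is a description over genes that share their 4 arrays and were chosen for a low mean.

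Function groups were not low in the same replicates. The 8 transporters had medians of -0.70, -1.30, -1.26 and -0.72 in replicates 1 to 4, so replicate 2 was among the lowest for them, and 5 of the 8 had their lowest value there. The neurotransmitter group had -0.68, -0.31, -1.22 and -0.94, and the cytoskeletal group -1.02, -0.47, -1.20 and -0.74, with replicate 2 nearest to intact in both. The transcripts with clone or locus names were lowest in replicate 4, at -0.63, -0.74, -0.85 and -1.09. Rpe65a was at -2.47 in replicate 2 and gja1b at -0.29 in the same sample.

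**Figure D5:**
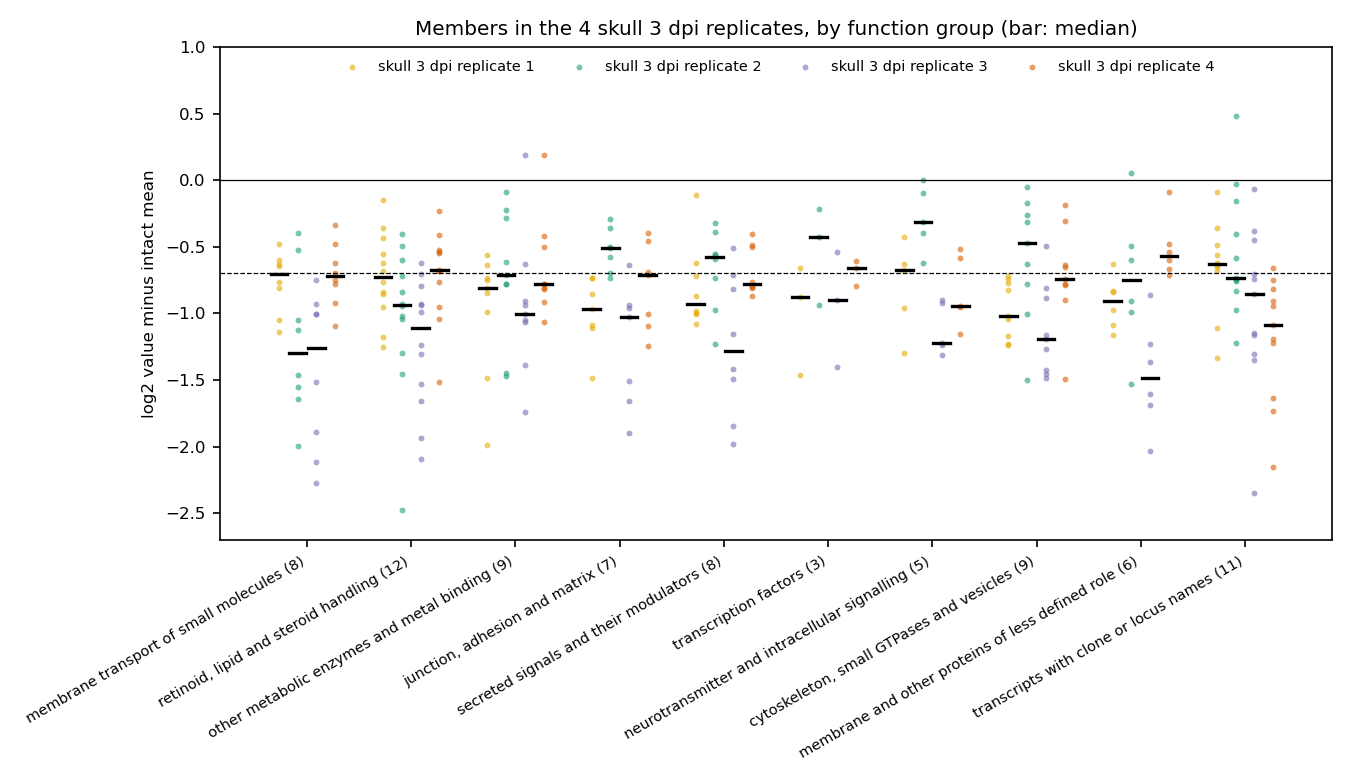
Log2 value of each member minus its intact mean (y axis) in the 4 skull 3 dpi replicates (colours), by function group, with the number of members in brackets and the group median as a black bar. Replicate 2 is low for transporters and near intact for the neurotransmitter and cytoskeletal groups, and the dashed line marks -0.7.

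Membership depended on single samples. When each of the 11 skull 3 dpi, nostril 3 dpi and intact samples was left out in turn, 15 members met the rule every time. These were rpe65a, oatx, slc2a11a, cndp1, gja1b, slc7a8b, si:ch211-71n6.4, igf2b, si:dkey-27d5.5, lix1, fads6, abr, slc13a3, farp2 and rbp4. The sample whose absence removed most members was intact replicate 4, without which 36 of the 78 no longer met the rule, followed by skull 3 dpi replicate 3 with 26 and intact replicate 3 and nostril 3 dpi replicate 1 with 21 each. Intact replicate 4 had the highest member median of the intact samples, 0.32, against -0.26, -0.05 and -0.02 in replicates 1 to 3.

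Markers of cell types were set beside the members. The samples expressed telencephalic genes such as emx3 (8.25 ± 0.14), tbr1b (9.84 ± 0.06) and dlx2a (8.72 ± 0.26; SD, n = 4 intact). In limma over the whole array, 4.78% of probe sets fell and 3.08% rose between skull 3 dpi and intact. The rule took members out of the lists by the same values, which lowers the counts over a list's other genes. Counts over whole lists are given beside them, but these include members, whose passing at skull 3 dpi was favoured by their choice. Both kinds of count are therefore a description. Of 53 measured ependymoglial and radial glial genes 12 fell at skull 3 dpi and none rose. Of the 53, 5 were members, and 9 of the 12 were among the other 48, which had 20 lower and 2 higher at an unadjusted p under 0.05. The lowest of these 9 were the brain aromatase cyp19a1b (-0.67, SE 0.10, adjusted p = 0.000629) and id1, a Bmp target (-0.65, SE 0.13, adjusted p = 0.00398), and the glutamine synthetase glula fell by 0.61 (SE 0.13, adjusted p = 0.0064). At nostril 3 dpi none of the 48 fell in limma, beside 0.00738% of all probe sets, with 0 lower at an unadjusted p under 0.05. Between the injuries at 3 dpi, 8 of the 48 were lower after skull than after nostril injury, beside 2.63% of all probe sets. With the 5 members, the summed linear level of this list was 28537 to 37352 at skull 3 dpi, 44898 to 46726 at nostril 3 dpi and 39161 to 50526 in intact brains. Without them it was 27030 to 34766, 40863 to 42398 and 36086 to 45598 in these groups. Among its non-members the median was -0.55 in skull 3 dpi replicate 3 and between -0.22 and -0.16 in the other replicates.

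The list of meninges and choroid plexus held 4 members, ptgdsb.1, igfbp2a, slc13a4 and foxd1, of 25 genes measured. None of the other 21 fell in limma at skull 3 dpi, and 4 of them were lower at an unadjusted p under 0.05. The 2 genes of the whole list that fell were members, chosen for low values in this comparison. Among these 21, fn1b, a fibronectin, rose by 0.81 (SE 0.19, adjusted p = 0.0123). With the 4 members, the summed level of the list was 9229 to 10092 at skull 3 dpi, 11493 to 13091 at nostril 3 dpi and 11281 to 14639 in intact brains. Without them it was 7777 to 9317, 9568 to 10521 and 9252 to 11262 in these groups, so skull 3 dpi and intact samples overlapped. The non-member medians were -0.16 to -0.06 over the skull 3 dpi samples. Of 26 microglial and macrophage genes, with no member among them, 21 rose at skull 3 dpi and 1 at nostril 3 dpi, beside 0.0688% of all probe sets at nostril 3 dpi, where 21 were higher at an unadjusted p under 0.05. Between the injuries at 3 dpi none of the 26 passed in limma, with 8 higher and 1 lower after skull injury at an unadjusted p under 0.05. Their summed levels were 9750 to 14431 at skull 3 dpi, 9532 to 11281 at nostril 3 dpi and 5671 to 8012 in intact brains. Of 38 neuronal genes 2 rose and none fell in limma, with 12 lower and 4 higher at an unadjusted p under 0.05, and sums of 30367 to 35336 at skull 3 dpi, 34669 to 37114 at nostril 3 dpi and 32551 to 38008 in intact brains. The part of these cell types in the members' values was not tested.

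Pathway lists around the members were counted at skull 3 dpi in the same way. The lists overlap, so the same gene can count in more than 1 of them. Glula counted in the ependymoglial, glutamate and glucocorticoid-responsive lists, and slc6a11b in the ependymoglial and glutamate lists. Of 22 genes of glutamate and GABA uptake and metabolism 5 fell, and the 3 that were not members were glula, the GABA transporter slc6a11b (-0.64, SE 0.17, adjusted p = 0.0217) and the GABA transaminase abat (-0.56, SE 0.18, adjusted p = 0.0496). Of 51 genes of cholesterol and lipid metabolism 7 fell, 6 of them not members, and 1 rose, with fdft1, which makes squalene, at -1.29 (SE 0.34, adjusted p = 0.025) at skull 3 dpi and -0.41 (SE 0.37, adjusted p = 0.923) at nostril 3 dpi. Of 30 Notch and her genes 3 fell, 1 of them a member. Of 9 gap junction and barrier genes gja1b was a member. None of the other 8 passed in limma, and 2 were lower and 1 higher at an unadjusted p under 0.05. Of 20 genes of the glucocorticoid-responsive list, with hsd11b2 a member, 2 fell and 1 rose, none of them a member. None of the 10 red blood cell genes passed at skull 3 dpi in limma, and 0 had an unadjusted p under 0.05.

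Lists with no member also held genes that fell at skull 3 dpi in limma. Of 33 genes of the mitochondrial respiratory chain 8 fell and none rose, among them ndufa4a, a subunit of the chain, at -0.44 (SE 0.08, adjusted p = 0.00233). Of 23 ribosomal protein genes 5 fell and none rose, with rpl8, of the large subunit, at -0.36 (SE 0.08, adjusted p = 0.00941), and 14 were lower at an unadjusted p under 0.05. Of 42 ion channel and transporter subunits 7 fell, among them slc4a4a and atp1a1b, which also counted in the ependymoglial list. Of 16 oligodendrocyte and myelin genes 2 fell, with the myelin basic protein gene mbpa at -1.04 (SE 0.20, adjusted p = 0.00351). This list did not fall as a whole, with 3 genes lower and 5 higher at an unadjusted p under 0.05 and a median of 0.15. Of 8 olfactory genes 2 fell. The part of these genes, or of RNA quality, in the members' values was not tested. A single gene fell in each of the lists of heat shock proteins (of 24), preoptic and hypothalamic neuropeptides (of 24) and Wnt, Fgf, Bmp and Hedgehog signals (of 58). In the last list this was id1, which also counted in the ependymoglial list. Genes rose in the lists of cell cycle (3 of 29), immediate early genes (2 of 28), matrix (2 of 43), endothelial and mural cells (1 of 36) and neutrophils and lymphocytes (1 of 7), and none fell in these. Mmp9 counted in both the matrix and the neutrophil list, and fn1b in both the matrix and the meningeal list. No gene passed in limma in the lists of circadian clock (34 genes, 7 at an unadjusted p under 0.05), glucose and energy metabolism (48 genes, 10), motile cilia (23 genes, 1) or skin, cartilage, bone and muscle (15 genes, 0).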

How the data were processed

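Per the labels and methods, the authors amplified 20 ng of telencephalic RNA, hybridised it to Affymetrix Zebrafish Gene 1.0 ST arrays and deposited log2 intensities after RMA in Expression Console (sketch-quantile normalization and median polish). Arrays have no depth, so precision is limited by the 3 or 4 samples per group. Array medians were 4.22 to 4.35, and correlations within groups were 0.963 to 0.974 at skull 3 dpi and 0.979 to 0.988 elsewhere. Nothing says that samples of a group came from separate fish, so p-values measure the spread between samples, which may be technical.

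The pair of technical arrays of intact replicate 1 was averaged, and a gene was represented by its probe set with the highest mean. Probe sets were named from the array annotation (20806 with 1 symbol, 855 with several and 53551 with none), and all 78 members were found in the current gene table. Contrasts were fitted over all 9 groups with limma 3.58.1 in R 4.3.3 (lmFit, eBayes) on 40670 probe sets whose mean passed a linear intensity of 20 in 1 group or more, with Benjamini-Hochberg adjustment. The fit was tested on simulated data. Tables and figures used Python 3.11.15 and matplotlib 3.10.9.

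The members, function groups and 28 gene lists were chosen with earlier results of these data known. Of 1040 list symbols, 877 matched. By rule the 70 members lowest at skull 3 dpi are named, and values in every sample are given for the 8 with the lowest skull minus nostril difference, those called in a tested comparison, the 3 widest and 3 narrowest at skull 3 dpi, and the genes next to each threshold. Beyond the 70, slc38a3a and cnr1 are named by the second part of the rule, and elovl2, hsd20b2 and chrm4a were named after their values were seen. Alternatives covered normalization, thresholds, samples in the fit, moderation of variances and single samples left out. Raw scans were not used here.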

Additional observations from a re-analysis of the deposited data

Results flagged for a closer look

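In groups of 4 samples, single values of members were compared with the nearest of the others by Dixon's criterion. Of 156 groups tested, 9 had a sample far from the rest. Chance gives about 1 in 20 for values that were not used in a selection. The groups tested were skull and intact samples whose values chose the members, so this rate does not apply to them. Whether 9 is more than chance gives cannot be decided here, and the samples are listed as a description.

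At skull 3 dpi, si:ch211-71n6.4 was 6.03 in replicate 1, above 5.34 to 5.46 in the others, htr1e was 5.84 in replicate 3, below 6.44 to 6.55, and chrm4a, a muscarinic receptor named after its values were seen, was 8.02 in replicate 2, above 7.06 to 7.12. In intact brains, replicate 4 was the highest for paqr6 (10.34, others 10.18 to 10.20), lix1 (9.65, others 8.59 to 8.68) and otpb (7.13, others 5.82 to 5.91). Intact replicate 1 was low for si:ch211-214b16.3 (6.10, others 7.29 to 7.42), replicate 3 for lipg (4.93, others 6.03 to 6.13) and replicate 2 for pde9aa (6.04, others 6.55 to 6.60).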

How the results depend on the processing

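The number of members depended on the thresholds, on normalization and on single samples. After further quantile normalization 60 of the 78 members were still more than 0.7 below intact at skull 3 dpi, and 68 after arrays were centred on their medians. All 78 stayed below intact under both. A skull threshold of -0.6 gave 176 genes and one of -0.8 gave 44. Leaving out 1 sample in turn gave 54 to 168, the lowest without intact replicate 4 and the highest without skull 3 dpi replicate 2, and 123 without skull 3 dpi replicate 4. In nostril 7 minus 1 dpi, the 4 calls became 9 with all groups but skull 3 dpi, 7 with a trended and robust prior and 13 with array weights, and 0 to 8 without single samples. In skull 7 minus 1 dpi, 0 calls became 1 with all groups but skull 3 dpi and 2 with array weights. With replicate number as a replicate block, 5 members were called in nostril 7 minus 1 dpi and 0 in the other comparisons. Samples with the same number correlated between -0.121 and 0.155 in their deviations from the group means. For skull and nostril injury at 1 dpi each skull sample correlated most with the nostril sample of its own number, at 0.049, 0.016 and 0.033. This did not hold for every sample in the other comparisons. With so few samples the check cannot tell whether equal numbers mark a shared day or batch, and the labels do not say. The cause of these shifts was not tested. The 4 genes called in nostril 7 minus 1 dpi kept their direction under each alternative and missed the threshold in 18 of the gene by alternative results, for example ccl25b (limma adjusted p = 0.0807), si:dkey-85k7.7 (0.107) and slc38a3a (0.107) when only the compared groups were fitted. The other 76 counts under alternatives were equal to the counts reported or within 1.5 times of them. Most of these were 0 calls beside 0 calls in comparisons without a call, which says little about stability. A similar count could also hold other genes, as without intact replicate 1, where 110 genes met the rule and 61 of them were members. Member medians near 0 changed sign when single samples were left out, with -0.121 to 0.125 in skull 7 minus 1 dpi, -0.095 to 0.14 in skull minus nostril at 7 dpi and -0.035 to 0.165 at 2 dpi. Signal over background limits members near the floor.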
